A study of Mus musculus with 16 samples.

Results

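The genes described are the heat shock proteins and the DNAJ co-chaperones of the mouse, taken as every gene symbol that begins with Hspa, Hspb, Hspd, Hspe, Hspf, Hsph, Hsp90 or Dnaj. They numbered 72 of the 18657 gene symbols in the data, of which 69 were listed in quadriceps and 72 in brown fat. Quadriceps muscle and brown adipose tissue came from male C57BL/6 mice at 10 weeks of age, housed at room temperature. The mice were homozygous for the uORF-TAA allele of Ppargc1a, or were wild-type littermates, and each genotype of a tissue had 4 libraries, which makes 16. Ppargc1a encodes the coactivator PGC-1alpha, a uORF (upstream open reading frame) precedes the main coding sequence, and TAA is a stop codon. Whether 1 mouse gave both tissues is not stated in the labels. The question put to these genes was whether their mRNA differed between uORF-TAA and wild-type mice in either tissue.

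Chaperones hold or refold proteins that are not in their native shape. HSP70 proteins bind exposed stretches of a client and release them in a cycle driven by ATP, DNAJ proteins deliver clients and start that ATP hydrolysis, and nucleotide exchange factors reset the cycle. HSP110 proteins are HSP70 relatives that act as exchange factors, HSP90 matures kinases and steroid receptors, and the HSP60 chaperonin folds proteins inside mitochondria. Small heat shock proteins hold unfolded clients without ATP and are abundant in striated muscle, where they protect the contractile apparatus. Many of these genes are switched on by heat shock factor 1 (HSF1), and those of the endoplasmic reticulum (ER) by the unfolded protein response.

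The authors' deposited table of each tissue gives per gene a mean normalized count over all 8 libraries, a log2 fold change between genotypes and its standard error (SE). Values of single libraries and means of each genotype were not analysed here, so the spread among mice is known only through the SE. Each fold change sets uORF-TAA over wild type. That direction assumes that the genotype named first by each table is the numerator, and it would turn over if the assumption failed. Estimated depth ran from 11.4 to 31.8 M counts (M, mega) per library in quadriceps and from 11.0 to 17.8 M in brown fat. For Ppargc1a itself the authors' deposited table gave 0.06 ± 0.13 (SE) in quadriceps and 0.0016 ± 0.11 (SE) in brown fat as log2 fold changes, neither of which passed the test. The markers fit the tissue labels. Ucp1, the uncoupling protein of brown fat, was 11655-fold higher in brown fat, and the muscle genes Acta1 and Myh4 stood in brown fat at 0.0845 and 0.0327 of their quadriceps level. In these bulk tissues, fewer cells of a type and less RNA per cell cannot be told apart.

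No member passed the test between genotypes in quadriceps. The deposited DESeq2 test called 0 of 69 at an adjusted p under 0.05, against 0% of the 17521 genes tested in that tissue, and 1 of 69 had an unadjusted p under 0.05, against 2.00% of genes. That one was Dnajb6, a chaperone that keeps aggregation-prone proteins soluble and is known for mutations in human muscular dystrophy. Its log2 fold change was -0.21 ± 0.10 (SE) by the authors' deposited table, with a mean normalized count of 747, an unadjusted p of 0.0281, an adjusted p of 1.00 and a 95% interval from -0.40 to -0.02. Of its 75-base windows, 39.2% also occur in other annotated genes, mostly the copy Gm6395, so its count is uncertain. Above 0 lay 38 members and below 0 lay 31, with a median of 0.0088, while 51.7% of all genes lay above 0 with a median of 0.0024.

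No member passed it in brown fat either. The authors' test called 0 of the 55 members with an adjusted p, against 0.0863% of genes, and 0 of 72 had an unadjusted p under 0.05, against 2.07% of genes. The other 17 members lay below the mean normalized count from which the deposited table gives an adjusted p. Above 0 lay 39 members and below 0 lay 33, with a median of 0.0041, while 51.2% of all genes lay above 0 with a median of 0.0015. The smallest unadjusted p was that of Hspa14, a ribosome-bound HSP70 relative, at 0.0680, where the authors' deposited table had 0.19 ± 0.10 (SE) on the log2 scale.

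The genotype effect was then compared between tissues, as the quadriceps log2 fold change minus that of brown fat. By a normal test on the deposited estimates, 0 of 69 members passed, against 0% of 16844 genes, and 0 had an unadjusted p under 0.05, against 1.16% of genes. The test treats the tissues as independent. Hspa4l, an HSP110 protein, had the smallest p (0.114, adjusted p = 1.00), with a difference of 0.27 ± 0.17 (SE). The authors' deposited table gave it 0.22 ± 0.13 (SE) in quadriceps and -0.06 ± 0.11 (SE) in brown fat. Of the 69 members, 28 lay above 0 in both tissues, 20 below 0 in both, 10 above 0 in quadriceps and below 0 in brown fat, and 11 the other way.

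A p that misses the threshold does not show that the genotypes were alike, so the intervals matter. On the deposited scale each 95% interval of the 69 members in quadriceps and the 72 in brown fat lay within 0.5 log2 units of 0. The highest upper bound was 0.50 for Hspb3 in quadriceps, and the lowest lower bound was -0.44 for Hspb11 in quadriceps. This scale is shrunken towards 0, as the standard errors show, and the unshrunken intervals are wider. The shrinkage can be solved out under an implied prior, with a small and a large solution for each SE, and the small one was taken wherever counting error allowed it. On that scale 45 of 69 members in quadriceps and 51 of 72 in brown fat had an interval within 0.5 log2 units of 0. Within 1 log2 unit lay 64 members in quadriceps and 64 in brown fat. These counts are upper limits, since the large solution widens an interval. For some members, such as Hspb6 and Hspb7 in brown fat and Hspa1a in quadriceps, the choice of solution is not settled.

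**Figure D1:**
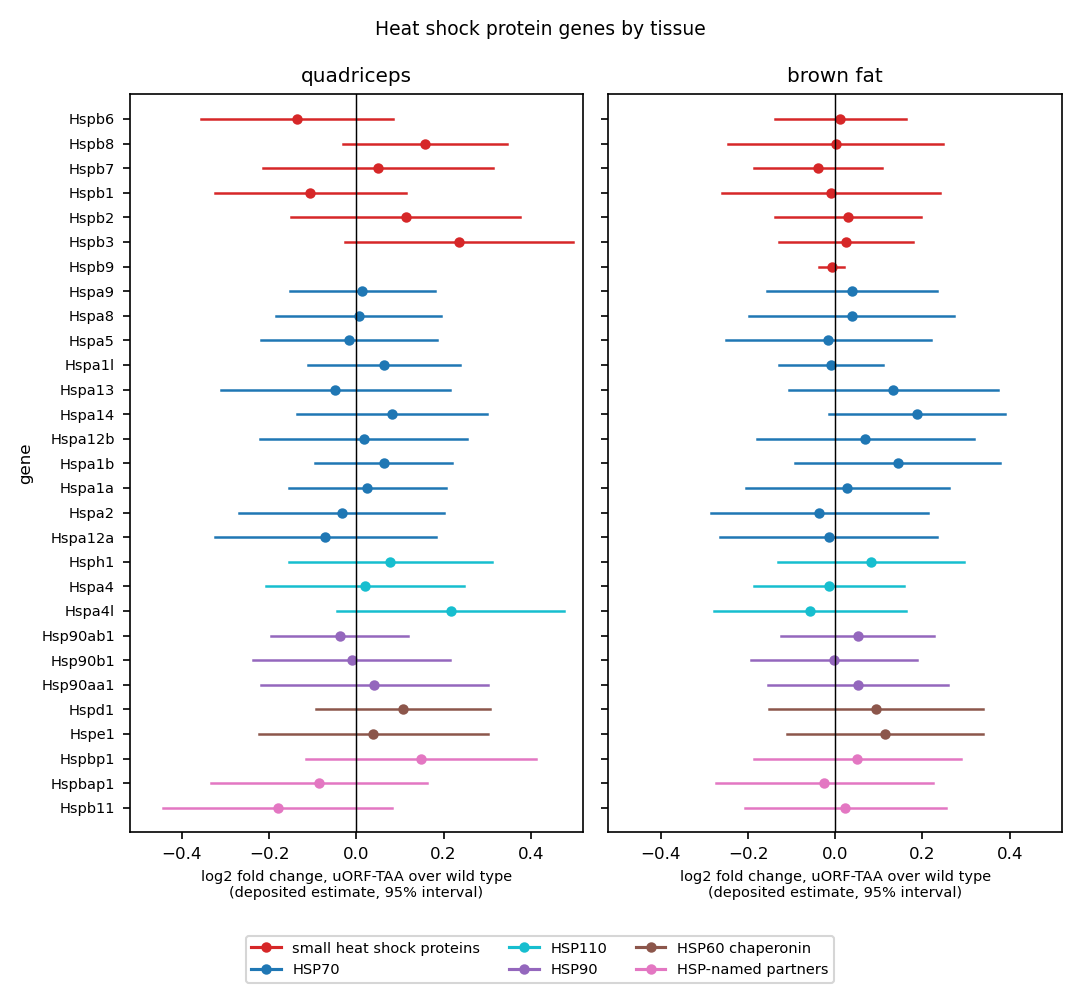
Log2 fold change of each heat shock protein gene, uORF-TAA over wild type, with its 95% interval on the deposited scale, in quadriceps (left) and brown fat (right). Genes run down each panel by family and then by mean normalized count, Hspb9 is listed in brown fat only, and every interval crosses 0.

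Promoter sequence was read for the elements that HSF1 and the unfolded protein response are known to use. RefSeq promoters (GRCm38.p6, 250 bases before to 50 after the start) were matched for 58 of the 72 members. The heat shock element was searched as 3 alternating units (GAANNTTCNNGAA or TTCNNGAANNTTC) and as 2 units (GAANNTTC or TTCNNGAA), the shorter being contained in the longer. The ER stress response element was searched as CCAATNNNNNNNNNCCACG, and all searches covered both strands. The 3-unit element occurred in 4 of the 58 members (Dnajb6, Hspd1, Hspe1 and Hsph1), and in 0.603% of all 32851 promoters. The 2-unit form occurred in 15 of the 58 members, and in 15.1% of all promoters. The ER element occurred in 3 of the 58 members (Hspa5, Hsp90b1 and Dnajc3), and in 0.119% of all promoters. A member counted if any of its promoters matched, and the 58 members had 75 promoters, so counts of members and shares of promoters differ in unit. The windows below show the element in capitals, on the strand of the gene, for the genes whose values follow.
Dnajb6, chr5:29735844-29735872, plus strand, 3-unit heat shock element: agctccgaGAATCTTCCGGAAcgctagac
Hspe1, chr1:55088051-55088079, plus strand, 3-unit heat shock element: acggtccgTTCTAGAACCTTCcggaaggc
Hspa1a, chr17:34972242-34972271, minus strand, 2-unit heat shock element: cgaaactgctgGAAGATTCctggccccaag
Hspa1b, chr17:34959324-34959353, minus strand, 2-unit heat shock element: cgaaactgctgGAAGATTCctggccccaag
Hspb1, chr5:135887811-135887840, plus strand, 2-unit heat shock element: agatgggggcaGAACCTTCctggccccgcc
Hspa5, chr2:34772020-34772048, plus strand, ER stress response element: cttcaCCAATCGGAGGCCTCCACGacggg
Hsp90b1, chr10:86705633-86705661, minus strand, ER stress response element: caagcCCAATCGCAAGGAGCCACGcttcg
Dnajc3, chr14:118937822-118937850, plus strand, ER stress response element: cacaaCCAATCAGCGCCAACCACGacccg

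The Hspe1 element also lies upstream of Hspd1, which is read from the other strand of the same stretch. Hspa1a and Hspa1b, the stress-induced HSP70 pair, have the same window, and their promoters are identical at 296 of 300 bases. Of the 4 members with the 3-unit element, 3 lay above 0 in quadriceps and 3 in brown fat, with medians of 0.06 and 0.09. Of the 15 with the 2-unit form, 11 lay above 0 in quadriceps and 11 in brown fat, with medians of 0.06 and 0.02. Of the 3 with the ER element, 0 lay above 0 in quadriceps and 1 in brown fat. A match is a description of the letters only, and none of these members passed the test.

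Levels were set beside each other in CPM, the mean normalized count scaled to a tissue total of 1000000, which compares a gene between tissues. The unit written as CPM per kilobase of transcript compares genes within a tissue. For it the count was divided by transcript length and then rescaled to a tissue total of 1000000. That rescaling differs between the tissues, so a ratio between tissues in this unit differs from the ratio in CPM. The tables were normalized separately, so ratios between tissues are descriptive and have no error. The 6 muscle fibre markers alone took 170508 CPM in quadriceps, and 7789 in brown fat, and 23.7% of the 16882 genes in both tables had a higher level in CPM in quadriceps than in brown fat. Among the 69 members, 26 were higher in quadriceps and 43 lower, with a median ratio of quadriceps over brown fat of 0.757, against 0.439 over all genes. All members summed to 7668 CPM in quadriceps and 9060 in brown fat. In CPM per kilobase, rescaled in each tissue, they summed to 8627 in quadriceps and 7496 in brown fat. The order of the tissues is opposite to that in CPM, but the rescaling differs by tissue, so it does not show an effect of length.

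**Figure D2:**
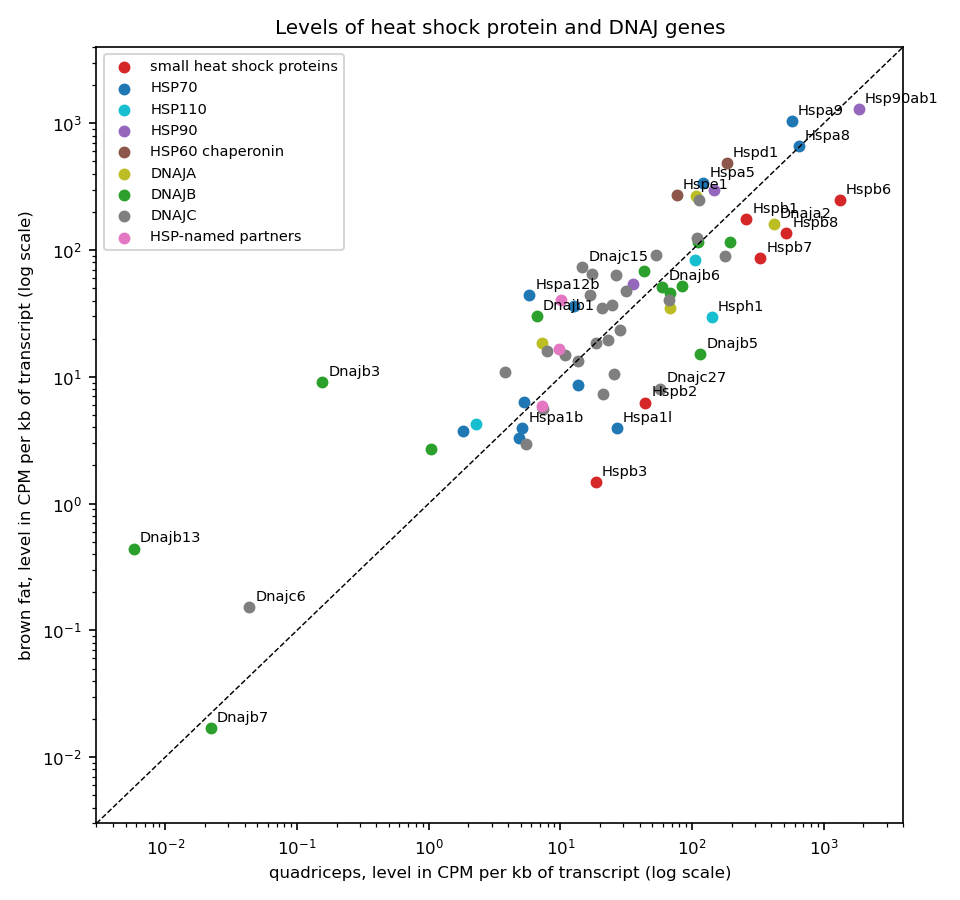
Level of each member in quadriceps (x axis) and brown fat (y axis), in CPM per kilobase of transcript on log scales, coloured by family, with equal levels on the dashed line. Small heat shock proteins lie to the right of the line and the HSP60 chaperonin genes above it.

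Small heat shock proteins were higher in quadriceps. All 6 listed in both tables had a ratio of quadriceps over brown fat above 1, with a median of 3.62. The family summed to 1462 CPM in quadriceps and 464 in brown fat. Hspb6, known from striated and smooth muscle and also called HSP20, had 671 CPM in quadriceps and 159 in brown fat. Hspb8, which works with Bag3 in clearing damaged muscle filaments, had 348 CPM in quadriceps and 116 in brown fat. Hspb7, a heart and muscle member that binds filamins, had 338 CPM in quadriceps and 112 in brown fat. The ratio was highest for Hspb3, at 9.88. Hspb1, the widely expressed member also called HSP25 in the mouse, had the most even level, with a ratio of 1.16. Hspb9, known from testis, was listed in brown fat alone, from 1 read in 1 library.

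Muscle fibre transcripts were present in the brown fat libraries, and their part in these levels was not tested. The 6 muscle fibre markers stood in brown fat at 0.0327 to 0.0845 of their quadriceps level in CPM. Hspb6 stood there at 0.237, Hspb7 at 0.331, Hspb8 at 0.333 and Hspb2 at 0.179, each above that range, and Hspb3 at 0.101 lay nearest to it. Of the Hspb2 exon length, 32.6% is overlapped on the other strand by Cryab, which had 270 CPM in quadriceps and 81.7 in brown fat. Whether strand was used in counting is not known.

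Between genotypes the small heat shock proteins of quadriceps lay on both sides of 0, 4 above and 2 below, with a median log2 fold change of 0.08, or 0.14 with the shrinkage solved out. In the authors' deposited table Hspb6 had -0.14 ± 0.11 (SE) with an unadjusted p of 0.223, Hspb8 0.16 ± 0.10 (SE) with 0.101 and Hspb7 0.05 ± 0.13 (SE) with 0.713. Hspb3, a muscle member, had the highest value of the family there, 0.24 ± 0.13 (SE) with an unadjusted p of 0.0772. The related gene Cryab, which encodes the small heat shock protein alphaB-crystallin under another symbol, had 0.24 ± 0.13 (SE) in the authors' deposited table and an unadjusted p of 0.0607. Smooth muscle markers in quadriceps lay below 0 in 4 of 4 cases, from -0.35 to -0.13, with 3 at an unadjusted p under 0.05, and their part in the Hspb6 value was not tested. In brown fat the family median was 0.0012, or -0.0051 with the median of genes of mean 10 or more taken off, with 4 above 0 and 3 below, and the values ran from -0.04 for Hspb7 to 0.03 for Hspb2 in the authors' deposited table. The 3 below 0 include Hspb9, from 1 read in 1 library.

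The small values in brown fat need their standard errors beside them. In a shrunken fit a gene has a low SE either because it was measured well or because it was measured so poorly that the estimate was pulled to 0. The deposited SE was 0.0769 for Hspb6, 0.0753 for Hspb7 and 0.0850 for Hspb2 in brown fat, while the median over all members there was 0.109. The 6 muscle fibre markers had 0.0653 to 0.0755 there, and their log2 fold changes lay between -0.018 and -0.0023. For Hspb2, at a mean normalized count of 29.2, counting error alone gives an unshrunken SE of at least 0.187, so the good-measurement solution of 0.0975 cannot hold and the other, 0.665, is left. For Hspb6 the solutions were 0.0855 and 0.758, and for Hspb7 0.0833 and 0.778, and the table does not say which holds. The brown fat values of Hspb6 and Hspb7 therefore have a precision that is not known.

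**Figure D3:**
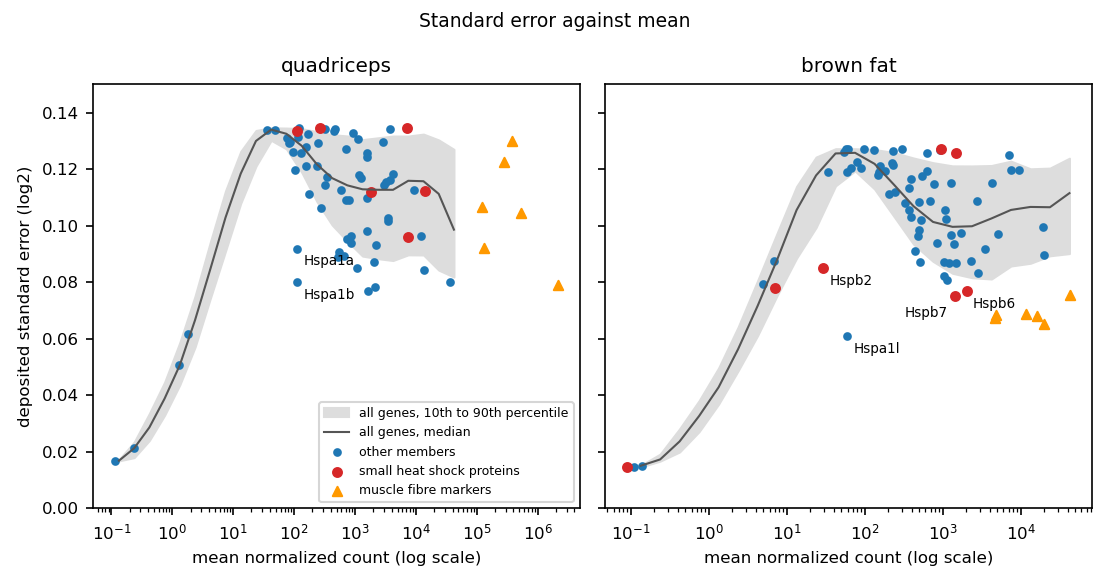
Deposited standard error of the log2 fold change (y axis) against mean normalized count (x axis, log scale) in quadriceps (left) and brown fat (right), with members as points, muscle fibre markers as triangles, and all genes as a median line and a 10th to 90th percentile band. Of the members labelled, Hspb6, Hspb7, Hspb2 and Hspa1l in brown fat lie under the band near the level of the muscle fibre markers. Hspa1a and Hspa1b, labelled in quadriceps, also lie under it. So do some members without a label, such as Dnajb12 and Dnajc27 in quadriceps and Dnajc13 in brown fat.

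HSP70 genes were expressed mostly through the constitutive forms of 3 compartments. Hspa9, the mitochondrial HSP70 also called mortalin, had 645 CPM in quadriceps and 1490 in brown fat. Hspa8, the constitutive cytosolic HSP70, had 573 in quadriceps and 743 in brown fat, and Hspa5, the ER HSP70 known as BiP, had 166 in quadriceps and 584 in brown fat. The family summed to 1465 CPM in quadriceps and 2969 in brown fat, with 4 of 11 members higher in quadriceps. Hspa12b, a distant relative of endothelial cells, was 9.67-fold higher in brown fat, where the 4 endothelial markers were 5.26 to 8.98-fold higher. Hspa1l, the third gene of the Hspa1 cluster, was 5.36-fold higher in quadriceps, but 71.9% of its exon length is overlapped by Gm10501 on the other strand. That overlap matters for its count only if strand was ignored in counting, which is not known.

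None of the HSP70 genes moved with genotype past the test, and 7 of 11 lay above 0 in each tissue, with medians of 0.01 in quadriceps and 0.04 in brown fat. Without the members that share at least 20% of their windows these medians were -0.0020 and 0.01. Hspa9 had 0.01 ± 0.08 (SE) in quadriceps and 0.04 ± 0.10 (SE) in brown fat in the authors' deposited table. For Hspa8 the authors' deposited table gave 0.0055 ± 0.10 (SE) in quadriceps and 0.04 ± 0.12 (SE) in brown fat, with 68.0% of its 75-base windows shared with other annotated genes. Such sharing makes a count uncertain, and it also reached 57.7% for Hspb1, 53.1% for Hsp90aa1, 33.7% for Hspd1 and 23.7% for Hspe1. Hspa5 had -0.02 ± 0.10 (SE) in quadriceps and -0.02 ± 0.12 (SE) in brown fat there, in the authors' deposited table. The ER HSP70 thus lay within 1 SE of 0 in both tissues.

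Hspa1a and Hspa1b, the genes that heat induces most, were low in both tissues. Their levels were 5.31 and 5.37 CPM in quadriceps and 4.56 and 5.23 in brown fat. In CPM per kilobase they had 4.81 and 5.15 in quadriceps, beside 643 for Hspa8, and 3.26 and 3.97 in brown fat, beside 660 for Hspa8. By the authors' deposited table Hspa1a had 0.03 ± 0.09 (SE) in quadriceps and 0.03 ± 0.12 (SE) in brown fat, and Hspa1b had 0.06 ± 0.08 (SE) and 0.14 ± 0.12 (SE). These share 54.2% and 55.8% of their windows, mostly with each other, so reads could be split between them. The quadriceps SE of Hspa1b is again too low for its count of 113. Solved out, the SE becomes 0.817 and the log2 fold change 0.64, with an interval from -0.97 to 2.24, so a difference of that size was not detectable. For Hspa1a in quadriceps the solutions were 0.106 and 0.683, just above and far above the counting limit of 0.0945. Hspa1l in brown fat, at a mean normalized count of 59.0, gave an unshrunken SE of 0.997.

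HSP110 genes differed in where they were expressed. Hsph1, which disaggregates proteins together with HSP70, had 199 CPM in quadriceps and 53.0 in brown fat. Hspa4 had 182 CPM in each tissue, and Hspa4l had 8.0 in quadriceps and 19.0 in brown fat. In quadriceps 3 of 3 lay above 0 and in brown fat 1 of 3, with medians of 0.08 and -0.01. The authors' deposited table gave Hsph1 0.08 ± 0.12 (SE) in quadriceps and 0.08 ± 0.11 (SE) in brown fat, and Hspa4 0.02 ± 0.12 (SE) and -0.01 ± 0.09 (SE).

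HSP90 was led by the constitutive cytosolic form. Hsp90ab1 had the highest level of all members in both tissues, 1838 CPM per kilobase in quadriceps and 1301 in brown fat. Without division by length and the rescaling after it, its levels were 1723 and 1543 CPM. Hsp90b1, the ER form known as GRP94, had 155 CPM in quadriceps and 395 in brown fat, and Hsp90aa1, the inducible cytosolic form, had 43.3 and 84.1. In the authors' deposited table the log2 fold change of Hsp90ab1 was -0.04 ± 0.08 (SE) in quadriceps, an interval from -0.20 to 0.12, and 0.05 ± 0.09 (SE) in brown fat, from -0.12 to 0.23. Hsp90b1 had -0.01 ± 0.12 (SE) in quadriceps and -0.0027 ± 0.10 (SE) in brown fat, and Hsp90aa1 0.04 ± 0.13 (SE) and 0.05 ± 0.11 (SE), in the authors' deposited table. All 3 lay within 1 SE of 0 in both tissues.

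The mitochondrial chaperonin pair was higher in brown fat. Hspd1, the HSP60 ring, had 165 CPM in quadriceps and 552 in brown fat, and Hspe1, its HSP10 lid, had 22 and 99.2. All 10 members that act in mitochondria, among them Hspa9, Dnaja3 and Dnajc15, were lower in quadriceps, with a median ratio of brown fat over quadriceps of 3.11, against 2.28 over all genes. Between genotypes both chaperonin genes lay above 0 in both tissues. In the authors' deposited table Hspd1 had 0.11 ± 0.10 (SE) in quadriceps and 0.09 ± 0.13 (SE) in brown fat, and Hspe1 0.04 ± 0.13 (SE) and 0.11 ± 0.12 (SE). Over the 10 mitochondrial members, 7 lay above 0 in quadriceps and 9 in brown fat, with medians of 0.01 and 0.04, and 0 had an unadjusted p under 0.05 in either. Brown adipocyte markers lay above 0 in brown fat too, 6 of 6 with a median of 0.09, and their part in the chaperone values was not tested.

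DNAJA proteins are the DNAJ class closest to the bacterial form. Dnaja2, a cytosolic partner of Hspa8, had 451 CPM in quadriceps and 221 in brown fat, and Dnaja3, the mitochondrial partner of Hspa9, had 106 and 335. Dnaja4 had 75.3 CPM in quadriceps and 49.6 in brown fat. Of its exon length, 52.7% is overlapped by Wdr61 on the other strand, which also matters only if strand was ignored in counting. Dnaja1, an HSF1 target, had 15.2 CPM in quadriceps and 48.6 in brown fat. By the authors' deposited table Dnaja2 had -0.04 ± 0.11 (SE) in quadriceps and -0.06 ± 0.08 (SE) in brown fat, and Dnaja3 0.07 ± 0.09 (SE) and 0.0029 ± 0.12 (SE). The authors' deposited table gave Dnaja4 -0.05 ± 0.11 (SE) in quadriceps and -0.13 ± 0.13 (SE) in brown fat. In each tissue 2 of 4 lay above 0.

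DNAJB genes split by tissue. Dnajb5 was 6.05-fold higher in quadriceps, with 141 CPM there and 23.3 in brown fat. Dnajb1, the HSF1-induced partner of Hspa1a, was 5.77-fold higher in brown fat, with 7.39 CPM in quadriceps and 42.6 in brown fat. Dnajb9, an ER member induced by the unfolded protein response, had 178 in quadriceps and 133 in brown fat. Dnajb3, known from testis, had a mean normalized count of 1.28 in quadriceps and 57.5 in brown fat. Dnajb7 had a mean normalized count under 1 in both tissues, and Dnajb13 in quadriceps.

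Between genotypes the DNAJB values lay on both sides of 0, 5 above and 7 below in quadriceps and 6 each way in brown fat, with medians of -0.01 and 0.0021. The counts include Dnajb3, Dnajb7 and Dnajb13 in quadriceps and Dnajb7 in brown fat, whose few reads leave their signs without weight. Among members of mean 10 or more the medians were -0.02 in quadriceps and -0.0047 in brown fat. With the shrinkage solved out the medians of all DNAJB members were -0.03 in quadriceps and -0.0051 in brown fat. Dnajb6, with 35.5 CPM in quadriceps and 38.9 in brown fat, had -0.21 ± 0.10 (SE) in quadriceps, as above, and -0.03 ± 0.10 (SE) in brown fat in the authors' deposited table. The difference between the tissues was -0.18 ± 0.14 (SE), with a p of 0.185 and an adjusted p of 1.00. Dnajb9 had -0.12 ± 0.13 (SE) in quadriceps and 0.06 ± 0.10 (SE) in brown fat in the authors' deposited table. Dnajb5 had -0.02 ± 0.11 (SE) and -0.06 ± 0.13 (SE) there, in the authors' deposited table, and Dnajb12, an ER membrane member, -0.03 ± 0.08 (SE) and -0.10 ± 0.09 (SE). For Dnajb2, known from neurons, the authors' deposited table gave -0.12 ± 0.13 (SE) in quadriceps and -0.05 ± 0.10 (SE) in brown fat, and for Dnajb11, an ER partner of BiP, 0.05 ± 0.09 (SE) and 0.0068 ± 0.09 (SE).

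**Figure D4:**
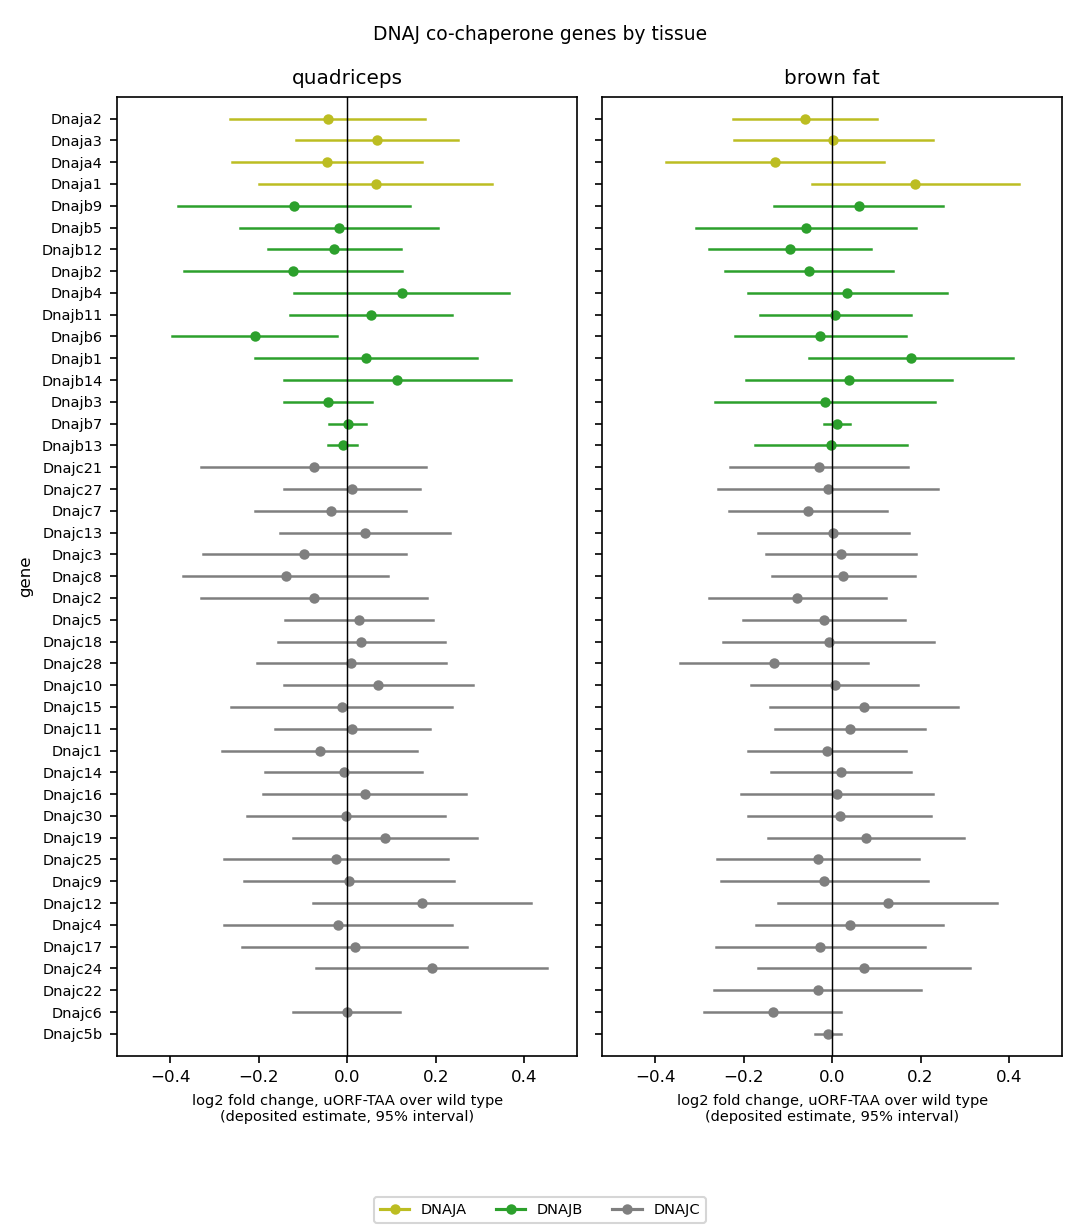
Log2 fold change of each DNAJ gene, uORF-TAA over wild type, with its 95% interval on the deposited scale, in quadriceps (left) and brown fat (right), ordered by class and mean normalized count. Dnajb6 in quadriceps is the one interval that does not reach 0, and Dnajc22 and Dnajc5b are listed in brown fat only.

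DNAJC proteins share only the J domain, and their tasks range from synaptic vesicles to splicing and mitochondrial import. Of the 25 listed in both tables, 7 were higher in quadriceps and 18 lower. In quadriceps the highest means were those of Dnajc21, a ribosome biogenesis factor, with 136 CPM, Dnajc27, with 99.6, and Dnajc7, a regulator of HSP70 and HSP90, with 98.4. In brown fat they were those of Dnajc7 with 275, Dnajc15, which sits in the mitochondrial inner membrane, with 213, and Dnajc3, an ER inhibitor of the kinase PERK also called p58IPK, with 116. Dnajc27, a member with a Rab-like GTPase domain, was 5.60-fold higher in quadriceps, and Dnajc15 was 6.34-fold higher in brown fat.

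The DNAJC log2 fold changes centred on 0, with 13 of 25 above 0 and a median of 0.0044 in quadriceps, and 13 of 27 above 0 and a median of -0.0077 in brown fat. Among members of mean 10 or more the brown fat median was 0.0026. Dnajc7 had -0.04 ± 0.09 (SE) in quadriceps and -0.05 ± 0.09 (SE) in brown fat by the authors' deposited table. Dnajc21 had -0.08 ± 0.13 (SE) and -0.03 ± 0.10 (SE) in the authors' deposited table, and Dnajc27 0.01 ± 0.08 (SE) and -0.0096 ± 0.13 (SE). The authors' deposited table listed Dnajc15 at -0.01 ± 0.13 (SE) in quadriceps and 0.07 ± 0.11 (SE) in brown fat, and Dnajc3 at -0.10 ± 0.12 (SE) and 0.02 ± 0.09 (SE). Dnajc5b was listed in brown fat alone, from 1 read in 1 library. The values of these 5 named pairs lay within 1 SE of 0.

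Hspbp1, Hspbap1 and Hspb11 carry an HSP name without being chaperones of these families. Hspbp1, an HSP70 exchange factor, had 5.82 CPM in quadriceps and 12.3 in brown fat, Hspbap1, which binds Hspb1, had 4.62 and 4.76, and Hspb11, an intraflagellar transport protein, had 2.30 and 11.5. The authors' deposited table gave Hspbp1 0.15 ± 0.13 (SE) in quadriceps and 0.05 ± 0.12 (SE) in brown fat, and Hspb11 -0.18 ± 0.13 (SE) and 0.02 ± 0.12 (SE). Hspbap1 had -0.09 ± 0.13 (SE) in quadriceps and -0.02 ± 0.13 (SE) in brown fat in the authors' deposited table.

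Members were also grouped by known role, as HSF1 targets and as proteins of the ER. Of 12 classical HSF1 targets, 10 lay above 0 in quadriceps and 10 in brown fat, with medians of 0.04 and 0.07 and 0 at an unadjusted p under 0.05 in either. Those below 0 were Hspb1 and Hsp90ab1 in quadriceps and Hspb1 and Hspa4l in brown fat. In brown fat the highest were Dnaja1 at 0.19 ± 0.12 (SE) and Dnajb1 at 0.18 ± 0.12 (SE) in the authors' deposited table, with unadjusted p of 0.116 and 0.129. Of 8 listed ER members, 2 lay above 0 in quadriceps and 4 in brown fat, with medians of -0.02 and 0.0013. That list was made by place in the cell and does not hold every ER member, with Dnajb12 among those left out. Beside them 51.7% of all genes in quadriceps and 51.2% in brown fat lay above 0.

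The partners of these chaperones passed no test either. Of 5 genes, the heat shock factors with their binding protein Hsbp1, 1 lay above 0 in quadriceps and 2 in brown fat. The one above 0 in quadriceps was Hsf5, at a mean normalized count of only 0.083, and the other 4 lay below 0 there. Hsf1 had -0.07 ± 0.12 (SE) in quadriceps and -0.0086 ± 0.10 (SE) in brown fat in the authors' deposited table. Of 10 HSP70 exchange factors, 5 lay above 0 in quadriceps and 8 in brown fat. Among them Bag3, the partner of Hspb8, had -0.13 ± 0.11 (SE) in quadriceps and 0.13 ± 0.12 (SE) in brown fat in the authors' deposited table. The ER factor Hyou1 had 0.06 ± 0.10 (SE) in quadriceps and 0.19 ± 0.11 (SE) in brown fat in the authors' deposited table. Of 16 HSP90 co-chaperones, 10 lay above 0 in each tissue, with medians of 0.02 and 0.02. The one of smallest p, Fkbp5, a glucocorticoid-induced co-chaperone of steroid receptors, had -0.18 ± 0.13 (SE) in quadriceps and -0.20 ± 0.13 (SE) in brown fat in the authors' deposited table.

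The other folding systems held 1 gene with an unadjusted p under 0.05, Herpud1 in brown fat. Of the 8 subunits of TRiC, the cytosolic chaperonin, 5 lay above 0 in quadriceps and 6 in brown fat, with medians of 0.04 and 0.01. Of 7 mitochondrial proteases, 4 lay above 0 in quadriceps and 7 in brown fat, with medians of 0.0076 and 0.04. Of 10 ER folding genes, 6 lay above 0 in each tissue. Herpud1, an ER degradation factor of the unfolded protein response, had -0.35 ± 0.12 (SE) and a p of 0.0026 in the authors' deposited table. It did not pass when adjusted over all genes, and it had -0.18 ± 0.12 (SE) in quadriceps in the authors' deposited table.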

How the data were processed

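RNA of 16 libraries was read from one end in reads of 75 bases, from a stranded mRNA kit, per the labels' protocols. The submitters' processing notes name STAR 2.5.1b, mm9 and DESeq2 1.10.1, while counter and annotation were not given in the sources used here. Per the file headers, the authors' table of each tissue holds a mean normalized count (a signal over 8 libraries), a log2 fold change with its standard error, a Wald score, a p-value and an adjusted p-value. The deposited score is the log2 fold change over its standard error. The brown fat table names wild type first, so its sign was turned, and both directions rest on reading the first name as the numerator.

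Called members had a deposited adjusted p-value under 0.05. The brown fat table gives none for 8701 genes with a p-value. Tissues were compared by the difference of log2 fold changes with a normal test and Benjamini-Hochberg adjustment over 16844 genes. Nothing says that libraries of a group came from separate mice, so p-values measure only the spread between these libraries. Depth was recovered from genes with 1 read in 1 library. Levels in CPM are mean normalized counts scaled to a total of 1000000. Those in CPM per kilobase are counts divided by transcript length (GENCODE vM21, 18438 of 18657 symbols) and rescaled to a total of 1000000 in each tissue. Windows of 75 bases shared between genes were counted in the same annotation. The deposited log2 values behave as shrunken: the SE falls towards 0 at low means and does not exceed 0.135 in quadriceps and 0.127 in brown fat. The unshrunken SE was solved from an implied normal prior. The smaller solution was taken unless it lay under the counting limit or the larger lay nearer to the trend of SE over the mean. Among members the counting limit alone decided.

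Per tissue and family, the 3 members of highest mean, every member with an unadjusted p under 0.05 and, per list, up to 3 genes of smallest p were named with values, and members under a mean of 1 by name. Hspb2, Hspb3, Hspa1a, Hspa1b, Hspa1l, Hspa12b, Hspa14, Dnaja1, Dnajb1 and Dnajb3 were added after their values were seen. The members and lists were chosen with earlier results of these data known. In simulated standard normal statistics, 200 genes were shifted at once. Genes shifted by 5 SE were recovered in 94.5% of cases over 17521 genes in quadriceps and 91.5% over 17973 genes in brown fat. Those shifted by 3 SE were recovered in 14.5% and 17.5%. The simulation checks the adjustment only. It does not give the power of the deposited tests, which in brown fat adjusted over 9272 genes. Python 3.11.15, numpy 2.4.6, scipy 1.17.1, pandas 2.3.3 and matplotlib 3.10.9 were used. Alternatives covered thresholds, low means, shared windows, shrinkage and the reading of the tables.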

Additional observations from a re-analysis of the deposited data

How the results depend on the processing

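The count of called members was 0 in each tissue at adjusted p of 0.01 and 0.1, among genes of mean 10 or more and of mean 50 or more, and with Benjamini-Hochberg adjustment over every gene with a p-value. For the difference between tissues it was 0 at an adjusted p of 0.1, among genes of mean 10 or more in both tables, with the shrinkage solved out, and with the opposite reading of brown fat, where 0 members had an unadjusted p under 0.05 and the smallest was 0.0753 for Hspa14. Of 18 family medians, 3 changed sign with the median of genes of mean 10 or more taken off (0.0046 in quadriceps, 0.0063 in brown fat), 2 among members of mean 10 or more, 1 with shrinkage solved out, and 1 of 16 without members of at least 20% shared windows, which was chosen after seeing the data like the unshrunken values. The largest of these moves, 0.061 on the log2 scale, was that of the small heat shock proteins in quadriceps with shrinkage solved out, to 0.142, and the HSP60 chaperonin of brown fat went to 0.160 there. With the other reading of the tables all 18 turned over, and the medians became -0.0513 for HSP90 and -0.104 for the HSP60 chaperonin in brown fat, and -0.0811 for small heat shock proteins, -0.0779 for HSP110, -0.0730 for the HSP60 chaperonin and 0.0858 for the HSP-named partners in quadriceps. No paired analysis was possible because the tables hold no value per library, and leaving out a library was not run for the same reason. The median unshrunken SE over all members was 0.159 in quadriceps and 0.164 in brown fat, which limits what could be called.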
